A study of Mus musculus with 13 samples.

Results

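The 9 genes described here are Sox2, Sox3, Sox4, Sox5, Sox6, Sox9, Sox11, Sox12 and Sox21, members of the Sox family of transcription factors that are active in neural stem cells, neuroblasts and glial progenitors. They were taken by name: every array probe whose platform gene symbol is one of these names was used. The names were chosen with earlier results of these data known. They account for 28 of the 45281 probes on the array, and all 9 genes kept at least 1 probe above background, so that they form 9 of the 11927 genes tested. In both tumor models 6 of the 9 genes were higher in tumor than in control brain, against 18.2% of all genes tested. These were Sox2, Sox3, Sox4, Sox11, Sox12 and Sox6. Sox3 and Sox6 were above background on no control array and were thus kept only through the tumors. Sox9 rose in the Nestin model, Sox21 passed the test in the NG2 model, and Sox5 passed it in neither. None of the 9 fell in either model.

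Sox proteins bind DNA through a high-mobility-group box related to that of the sex-determining factor Sry, and they are grouped by the similarity of that box and of the rest of the protein. The SoxB1 factors Sox2 and Sox3 keep neural progenitors undifferentiated, and the SoxB2 factor Sox21 opposes them and is linked to progression toward differentiation. The SoxC factors Sox4, Sox11 and Sox12 are active in committed neuronal precursors, where Sox4 and Sox11 promote the expression of neuronal genes. The SoxD factors Sox5 and Sox6 carry no activation domain of their own and work with other Sox proteins, in the brain with those of the oligodendrocyte lineage and of cortical neurons. The SoxE factor Sox9 is needed for the switch from neuron to glia formation and stays on in astrocytes.

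The study profiled high-grade gliomas, malignant tumors with glial features, in mice that lose tumor suppressor genes through a tamoxifen-inducible Cre recombinase. Cre is driven by Nestin sequences, active in neural stem and progenitor cells, in the Nestin-creERT2 model, and by those of NG2 (Cspg4), active in oligodendrocyte progenitors and pericytes, in the NG2-creERTM model. The 4 groups are Nestin tumor (3 arrays, independent tumors), Nestin control (3 arrays, brain of control mice of that model), NG2 tumor (4 arrays, independent tumors) and NG2 control (3 arrays). Tumors were taken once the mice had neurological signs, and control tissue came from the matching place in the brain. The labels do not name that place, the deleted genes, the alleles the controls carry, any induction treatment, the strain or the age, so these are not given for any group.

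All 13 arrays are single-colour Illumina mouse BeadChips. Levels below are log2 normalized intensities of 1 probe per gene, the brightest, and a difference of 1 on this scale is a doubling of normalized signal. Levels of different genes come from different probes and are not set against each other. The median raw intensity was 176 to 209 on the 7 tumor arrays and 117 to 142.1 on the 6 control arrays, 43.5% to 47.5% of probes were detected on an array, and the correlation across genes between arrays of a group was 0.937 to 0.983. The arrays lie on 3 slides: Nestin tumors 1 and 2 share slide 1 with Nestin controls 1 and 2, the NG2 tumors share slide 2 with NG2 controls 1 and 2, and slide 3 holds Nestin tumor 3 with the remaining control of each model. No slide holds tumors of both models, so slide and model cannot be told apart for a tumor against tumor comparison except through the controls. As a check of the labels, markers of mature neurons were high in both control groups (mean level of the 9 measured markers 12.4 to 12.6) and lower in tumors (8.80 to 10.3 in the Nestin model, 6.58 to 8.13 in the NG2 model), while all 6 measured mitotic genes were higher in both tumor groups.

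The promoters of Sox2, Sox4, Sox11 and Sox12 are shown because these genes rose in both models and have a single promoter in RefSeq. Each window is the 250 bases before the start of the gene in RefSeq on build GRCm38.p6, written 5′ to 3′ on the gene's own strand. Capitals mark the CCAAT box, the letters CCAAT or, on the other strand, ATTGG.
Sox2, chr3:34649745-34649994, plus strand: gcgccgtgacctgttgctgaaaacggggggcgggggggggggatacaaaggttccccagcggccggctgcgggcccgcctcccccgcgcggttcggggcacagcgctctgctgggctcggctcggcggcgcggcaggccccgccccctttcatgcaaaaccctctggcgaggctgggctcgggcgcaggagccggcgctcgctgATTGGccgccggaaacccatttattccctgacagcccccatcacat
Sox4, chr13:28953700-28953949, minus strand: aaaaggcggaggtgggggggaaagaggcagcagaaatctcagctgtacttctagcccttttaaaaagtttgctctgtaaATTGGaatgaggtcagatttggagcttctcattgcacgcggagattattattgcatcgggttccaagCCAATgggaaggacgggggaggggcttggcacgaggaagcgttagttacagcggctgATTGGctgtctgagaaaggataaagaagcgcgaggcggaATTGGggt
Sox11, chr12:27342719-27342968, minus strand: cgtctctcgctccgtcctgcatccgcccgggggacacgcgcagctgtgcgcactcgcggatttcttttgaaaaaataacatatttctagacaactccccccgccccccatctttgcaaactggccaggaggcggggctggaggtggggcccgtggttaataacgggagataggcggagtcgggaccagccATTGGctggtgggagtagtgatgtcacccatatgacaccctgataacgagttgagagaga
Sox12, chr2:152398047-152398296, minus strand: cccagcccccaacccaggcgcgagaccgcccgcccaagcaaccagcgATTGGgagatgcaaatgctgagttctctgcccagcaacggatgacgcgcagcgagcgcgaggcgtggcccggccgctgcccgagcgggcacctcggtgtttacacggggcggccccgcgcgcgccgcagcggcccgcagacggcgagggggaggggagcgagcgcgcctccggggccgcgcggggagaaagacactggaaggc
A CCAAT box occurs once in the windows of Sox2, Sox11 and Sox12 and at 4 places in that of Sox4. Of all 32851 mouse promoter windows of this length, 33.85% hold at least 1. The GC-box letters GGGCGG, or CCGCCC on the other strand, occur at 2 places in the window of Sox2, 2 in Sox11 and 3 in Sox12, with 0 in Sox4, and 32.74% of all windows hold them. The windows of Sox2 and Sox12 are 72% and 74.4% G and C, and hold 27 and 35 CpG pairs, against a median of 52.4% and 6 over all windows. The window of Sox4 is the lowest of the 4 in G and C at 50.8%. These letter matches describe the windows and say nothing of what binds there.

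**Figure D1:**
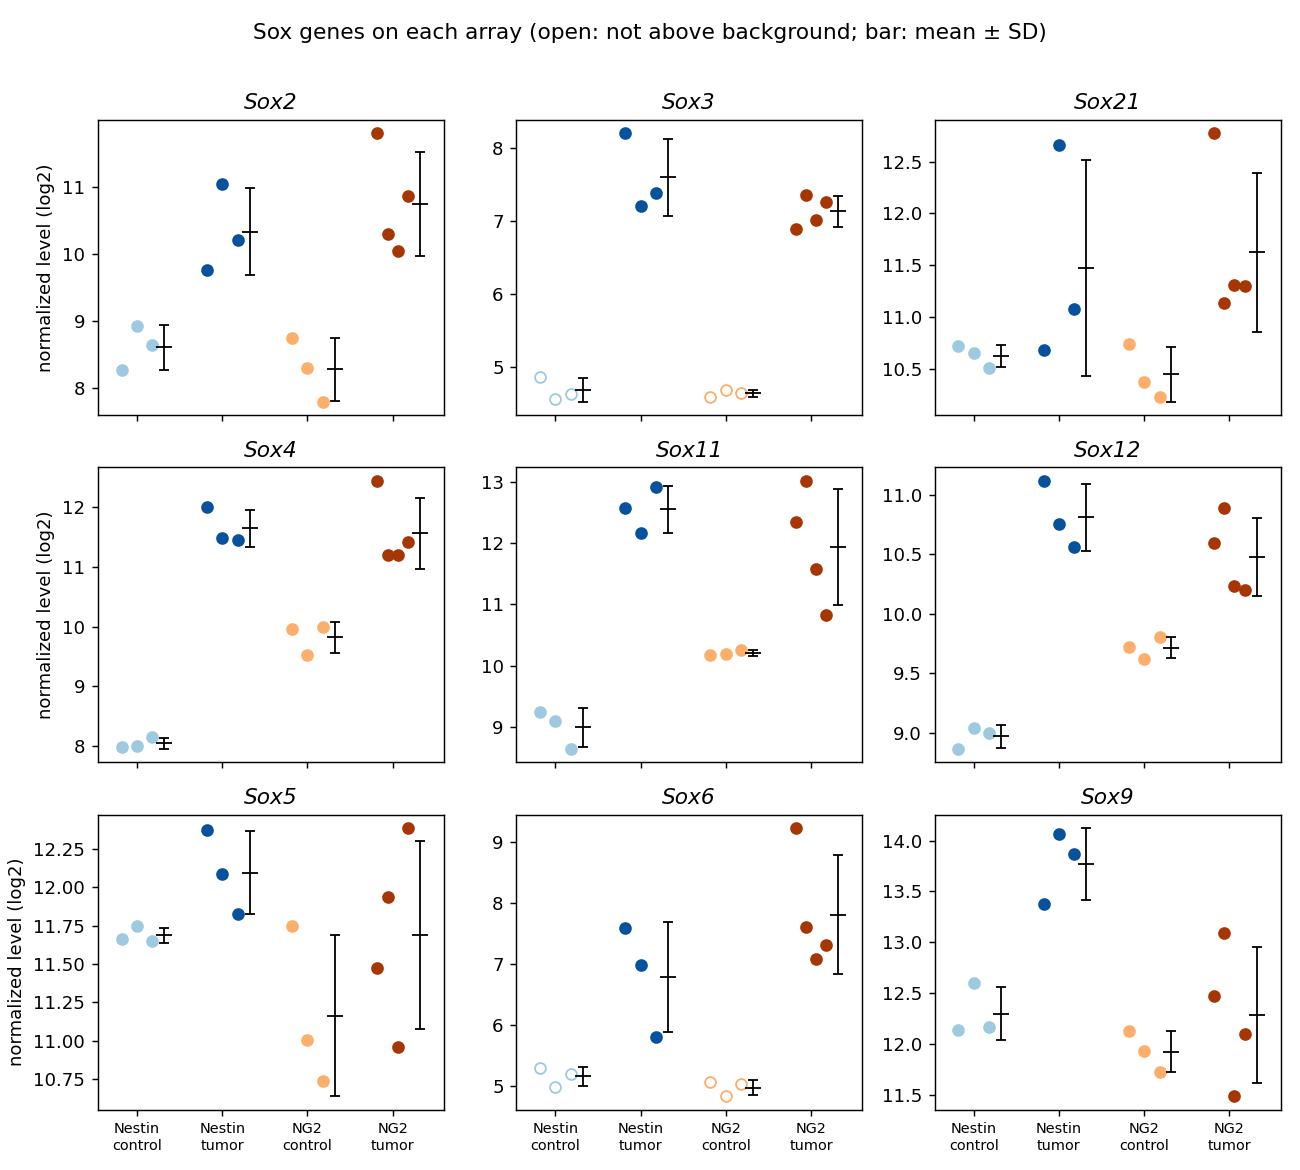
Log2 normalized level (vertical axis, scaled separately for each gene) of the 9 Sox genes on each of the 13 arrays, by group. Points are arrays, open points are arrays where the probe was not above background, and bars are the group mean ± SD; Sox3 and Sox6 were not above background on any control array, and Sox4, Sox11 and Sox12 were lower in Nestin than in NG2 controls on every array.

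The tumor-control comparison asks which Sox genes differ between glioma and the matching control brain. In the Nestin model 7 of the 9 Sox genes were higher and 0 lower at an adjusted p under 0.05 (limma, Benjamini-Hochberg over all 11927 genes), against 24.4% of all genes higher and 21.9% lower. In the NG2 model 7 of 9 were again higher and 0 lower, against 26.6% and 24.1% of all genes. The 6 genes higher in both models set 6 of 9 against 18.2% of all genes higher in both. The median change of the 9 was 1.72 in the Nestin model and 1.74 in the NG2 model on the log2 scale, where the median of all genes was 0.06 and 0.09. With Sox3 and Sox6 at the lower bounds given below, the medians were again 1.72 and 1.74. Tumor and control levels did not overlap, with tumors higher, for 8 of the 9 genes in the Nestin model and 7 in the NG2 model, against 31.1% and 27% of all genes. Sox3 and Sox6 were detected on 7 tumor arrays and 0 control arrays. They were thus kept only through the group where they are high, and all these counts include them. The 9 genes were also chosen with earlier results of these data known, so the counts describe the list and do not test it. In tissue, a lower signal from fewer cells of a type and from less RNA per cell cannot be told apart, and likewise for a higher one.

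**Figure D2:**
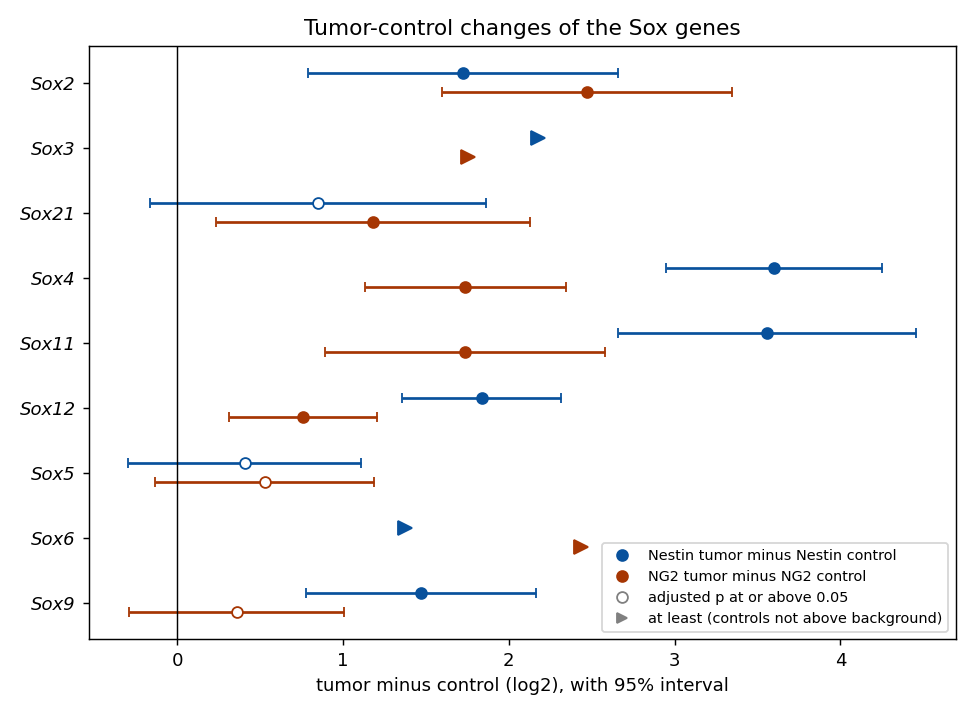
Tumor minus control change (horizontal axis, log2) of the 9 Sox genes, blue for the Nestin model and brown for the NG2 model, with the 95% interval from limma. Filled points had an adjusted p under 0.05, and triangles are lower bounds for Sox3 and Sox6, which were not above background in the controls; Sox4, Sox11 and Sox12 lie farther right in the Nestin model, and Sox5 is open in both.

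Sox2, the SoxB1 factor that maintains neural stem cells, was higher in all 7 tumors than in every control of its model. Its log2 level was 9.75, 11.04 and 10.20 in Nestin tumors 1 to 3 and 8.26, 8.92 and 8.63 in the Nestin controls. In NG2 tumors 1 to 4 it was 11.79, 10.30, 10.04 and 10.85, against 8.74, 8.29 and 7.79 in the NG2 controls. The groups did not overlap in either model, and the tumors themselves spread over more than the controls did. The change was 1.72 ± 0.43 (SE; 3.30-fold, adjusted p = 0.00515) in the Nestin model and 2.47 ± 0.41 (5.54-fold, adjusted p = 0.00019) in the NG2 model. Between the models the tumor levels differed by -0.42 (95% interval -1.29 to 0.46, adjusted p = 0.573), which did not pass. 

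Sox3, the other SoxB1 factor and an X-linked gene of neural progenitors, was not above background on any of the 6 control arrays and was detected on all 7 tumor arrays. Its level was 8.19, 7.21 and 7.38 in the Nestin tumors and 6.89, 7.35, 7.01 and 7.25 in the NG2 tumors. The 6 controls lay between 4.56 and 4.87, near the bottom of the scale. Since the control values are bounds, the change is given as at least 4.53-fold in the Nestin model (adjusted p = 1.14e-06) and at least 3.37-fold in the NG2 model (adjusted p = 1.38e-06), the tumor mean over the dimmest probe still above background in the controls. The measured tumor means were 7.59 and 7.13, and their difference of 0.47 did not pass (adjusted p = 0.24).

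Sox21, the SoxB2 factor, was detected on all 13 arrays and passed the test in the NG2 model alone. Its level was 10.72, 10.65 and 10.50 in the Nestin controls and 10.74, 10.37 and 10.22 in the NG2 controls. The Nestin tumors had 10.68, 12.66 and 11.08, so that tumor 1 lay within the controls and tumor 2 far above them. NG2 tumor 1 had 12.77, and the other NG2 tumors had 11.13, 11.30 and 11.30. The change was 0.85 ± 0.47 (adjusted p = 0.155) in the Nestin model and 1.18 ± 0.44 (adjusted p = 0.0378) in the NG2 model. The NG2 call rests on single arrays: without NG2 tumor 1 the change was 0.80 (adjusted p = 0.1), and without NG2 control 1, 2 or 3 it was 1.33, 1.14 and 1.07 (adjusted p = 0.0513, 0.0928 and 0.116).

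The SoxC genes Sox4 and Sox11 rose 12.1-fold and 11.8-fold in the Nestin model. Sox4, which is active in neuronal precursors and in many cancers, had levels of 7.98, 8.0 and 8.15 in the Nestin controls and 12, 11.49 and 11.44 in the Nestin tumors. In the NG2 model the controls had 9.95, 9.52 and 9.99 and the tumors 12.44, 11.19, 11.20 and 11.42. Tumors of the models thus lay close together (means 11.64 and 11.56), while the controls were far apart. The change was 3.60 ± 0.30 in the Nestin model (12.1-fold, adjusted p = 7.9e-07) and 1.74 ± 0.28 in the NG2 model (3.34-fold, adjusted p = 0.000171).

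Sox11, which drives neuronal gene expression in precursors, followed the same order of groups. It had 9.24, 9.11 and 8.64 in the Nestin controls, 10.18, 10.19 and 10.26 in the NG2 controls, 12.58, 12.16 and 12.92 in the Nestin tumors and 12.35, 13.02, 11.59 and 10.83 in the NG2 tumors. NG2 tumor 4 was the lowest of the tumors, yet above every control. The change was 3.56 ± 0.42 (11.8-fold, adjusted p = 1.54e-05) in the Nestin model and 1.74 ± 0.39 (3.33-fold, adjusted p = 0.00212) in the NG2 model.

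Sox12, the third SoxC gene, had 8.87, 9.05 and 9.0 in the Nestin controls and 9.72, 9.62 and 9.80 in the NG2 controls. The Nestin tumors had 11.12, 10.75 and 10.56, and the NG2 tumors 10.59, 10.88, 10.23 and 10.20. No tumor of either model reached down to its controls. The change was 1.84 ± 0.22 (3.57-fold, adjusted p = 1.92e-05) in the Nestin model and 0.76 ± 0.21 (1.70-fold, adjusted p = 0.00745) in the NG2 model.

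The changes were also taken within each slide. Within slide 1, with Nestin tumors 1 and 2 against Nestin controls 1 and 2, 6 of the 9 were higher, against 15.3% of all genes in that fit. The change of Sox2 was 1.80 there (adjusted p = 0.0501) and did not pass, while Sox4, Sox11, Sox12 and Sox9 rose by 3.75, 3.20, 1.98 and 1.35. Sox3 and Sox6, not above background in the controls, passed there as well (adjusted p = 0.00861 and 0.0114). Within slide 3, with 1 Nestin tumor and 1 Nestin control and so no test, the differences ran from 0.18 for Sox5 to 4.28 for Sox11. Within slide 2, with the 4 NG2 tumors against NG2 controls 1 and 2, 5 of the 9 were higher, against 18.6% of all genes: Sox2, Sox4 and Sox11, at 2.23, 1.82 and 1.76, and Sox3 and Sox6 (adjusted p = 0.000225 and 0.00586). Sox21 (1.07, adjusted p = 0.1) and Sox12 (0.80, adjusted p = 0.0526) did not pass on slide 2 alone.

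The difference between the tumor effects of the models was tested as an interaction. For Sox4 it was 1.86 ± 0.41 (adjusted p = 0.0243), and Sox4 was the only one of the 9 to pass, against 3.8% of all genes. For Sox11 it was 1.82 ± 0.57 (adjusted p = 0.0946) and for Sox12 1.08 ± 0.30 (adjusted p = 0.0661), which did not pass. The Sox4 call was lost without any 1 of Nestin tumor 1, Nestin control 1, 2 or 3, or NG2 control 1 or 3 (differences 1.68 to 1.92, adjusted p = 0.0528 to 0.0739). Without NG2 tumor 2 the differences of Sox11, Sox12 and Sox9 passed as well, at 2.18, 1.21 and 1.38 (adjusted p = 0.0188, 0.0298 and 0.0477). With slide as a fixed block the Sox4 difference was 1.78 (adjusted p = 0.0976).

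The same 3 genes were compared between the control groups. Nestin control was lower than NG2 control by 1.78 ± 0.30 for Sox4 (-1.78, adjusted p = 0.00392), the only one of the 9 past the threshold there, against 3.47% of all genes. The differences were -1.21 ± 0.42 for Sox11 (adjusted p = 0.176) and -0.74 ± 0.22 for Sox12 (adjusted p = 0.102). For all 3 SoxC genes the 3 Nestin controls lay below the 3 NG2 controls without overlap, which 11.1% of all genes did in that direction. On slide 3, the only slide with a control of each model, Nestin control 3 was lower than NG2 control 3 by the differences -1.84 for Sox4, -1.62 for Sox11 and -0.80 for Sox12, with 1 array each and no test. With slide as a fixed block the Sox4 control difference was -1.99 (adjusted p = 0.154). In the tumors the 3 genes differed between models by 0.08 (95% interval -0.53 to 0.69) for Sox4, 0.61 for Sox11 and 0.33 for Sox12, and none passed.

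Genes of neuroblasts and newborn neurons, the migrating precursors in which SoxC factors are known to act, were also compared between the controls. Of the 16 measured genes of that list, 4 were lower and 1 higher in Nestin than in NG2 controls, and 11 did not pass. Sp8 and Sp9, factors of olfactory bulb interneuron precursors, differed by -3.38 ± 0.23 (adjusted p = 6.67e-07) and -2.39 ± 0.19 (adjusted p = 3.67e-06), with Sp9 above background in 2 of 3 Nestin controls. Dlx2, a factor of inhibitory neuron precursors, differed by -2.43 (adjusted p = 0.00144). Eomes, a factor of intermediate progenitors, was not above background in Nestin controls and at least 2.74-fold lower there (adjusted p = 4.65e-06). Prox1, a factor of dentate granule neurons among others, went the other way by 1.88 (adjusted p = 0.0242). Of the genes that did not pass, Dcx, Dlx1, Igfbpl1, Mex3a and Dpysl3 also lay lower in Nestin controls without overlap, and Stmn2 lay higher. The mean of Dcx was 8.73 in Nestin and 10.40 in NG2 controls, that of Dlx1 9.90 and 12.42, and that of Stmn2 13.02 and 12.43. The mean level over the 16 genes was 7.89 to 8.0 in Nestin controls and 8.77 to 9.03 in NG2 controls, and none of the arrays overlapped.

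In the tumors that list moved both ways. Of its 16 genes 5 were higher and 3 lower in Nestin tumors than in controls, and 5 were higher and 8 lower in NG2 tumors. Mex3a, an RNA-binding protein gene, and Dpysl3, a cytoskeletal gene of growing neurites, rose in both models, by 3.05 and 2.98 in the Nestin model and by 2.44 and 2.45 in the NG2 model. Stmn2 of the same list went the other way in both. Its mean level was 8.06 in Nestin tumors against 13.02 in Nestin controls. In the NG2 model it was 6.39 in tumors, with 3 of 4 above background, against 12.43 in controls. Sp8, Dlx2 and Dlx1, the last also a factor of inhibitory neuron precursors, fell by 3.88, 3.16 and 6.0 in the NG2 model, where Sp8 and Dlx1 were above background in 3 of 4 tumors and Dlx2 in 1 of 4, so that these sizes rest in part on values at background. Igfbpl1 was higher in Nestin tumors than controls (adjusted p = 0.00273) and lower in NG2 tumors than controls (adjusted p = 0.00403), being above background in 2 of 3 Nestin controls and 1 of 4 NG2 tumors. The mean level of Dcx was 10.55 in Nestin tumors and 8.73 in Nestin controls. In the NG2 model it was 8.63 in tumors, which ran from 6.23 to 10.38, and 10.40 in controls. The part of cells expressing neuroblast genes in the control levels of Sox4, Sox11 and Sox12 was not tested.

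**Figure D3:**
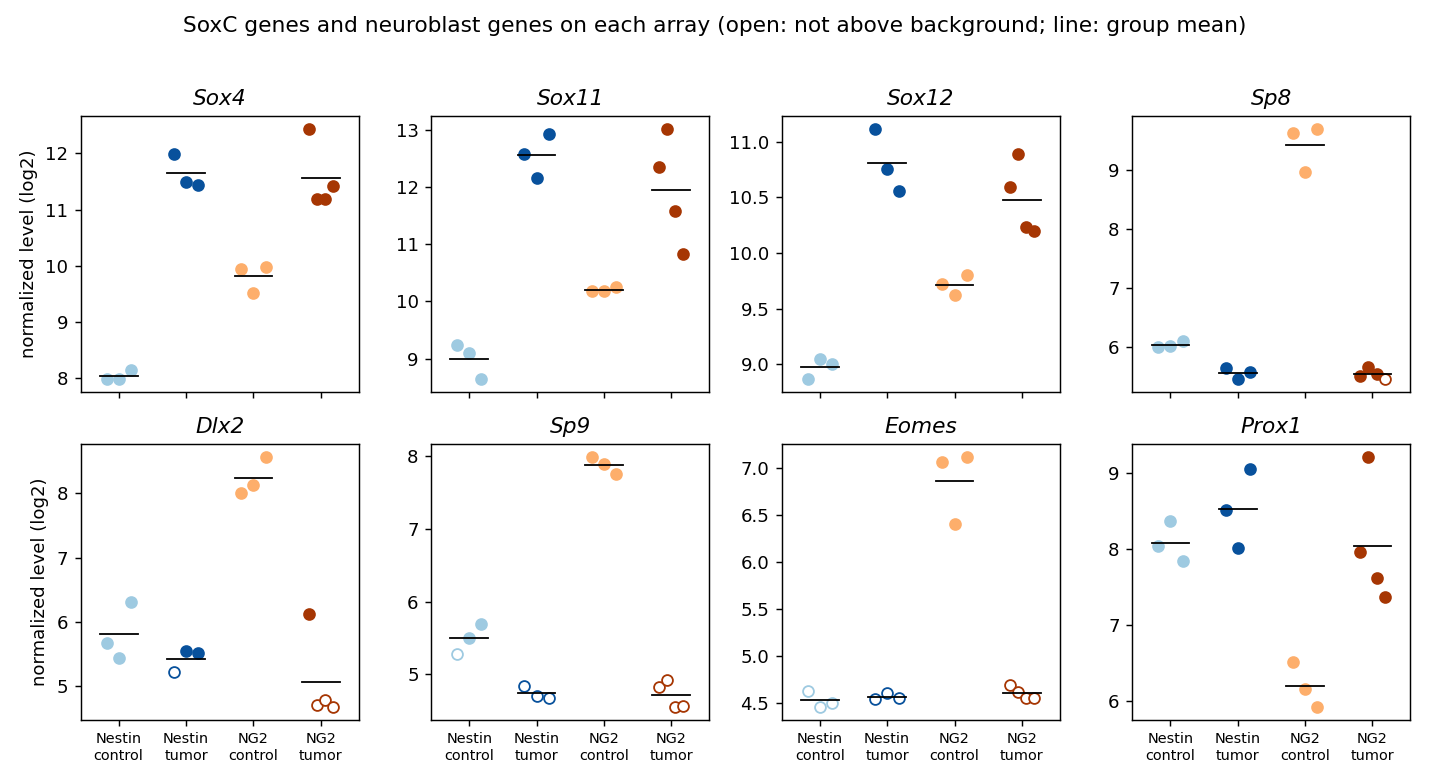
Log2 normalized level (vertical axis, scaled separately for each gene) of Sox4, Sox11, Sox12 and the 5 of 16 neuroblast genes past the threshold between the control groups, on each of the 13 arrays, by group. Lines are group means and open points arrays not above background; Sp8, Dlx2, Sp9 and Eomes were lower in Nestin than in NG2 controls and low in all tumors, Prox1 was higher in Nestin than in NG2 controls, and the SoxC genes were high in the tumors.

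Of the SoxD genes, Sox5 passed in neither model. Its level was 11.67, 11.75 and 11.65 in the Nestin controls and 12.37, 12.09 and 11.83 in the Nestin tumors, which lay above the controls on every array. The NG2 controls had 11.75, 11 and 10.74 and the NG2 tumors 11.48, 11.94, 10.96 and 12.39, and these groups overlapped. The change was 0.41 ± 0.33 (95% interval -0.29 to 1.11, adjusted p = 0.331) in the Nestin model and 0.53 ± 0.31 (95% interval -0.13 to 1.19, adjusted p = 0.168) in the NG2 model. Without NG2 tumor 3 the NG2 change of Sox5 was 0.77 and passed (adjusted p = 0.0362). All 5 kept probes of Sox5 lay between -0.30 and 0.41 in the Nestin model and between 0.26 and 0.58 in the NG2 model.

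Sox6, which is expressed by oligodendrocyte progenitors and restrains their maturation, was not above background on any control array. It had 7.59, 6.98 and 5.81 in the Nestin tumors and 9.23, 7.62, 7.08 and 7.31 in the NG2 tumors, with controls between 4.83 and 5.30. It was at least 2.59-fold higher in Nestin tumors (adjusted p = 0.0164) and at least 5.42-fold higher in NG2 tumors (adjusted p = 0.0002) than in their controls. Nestin tumors were lower than NG2 tumors by 1.02 on average (-1.02 ± 0.47, adjusted p = 0.193), which did not pass. The Nestin call was lost without Nestin tumor 1 (adjusted p = 0.0752) and without Nestin control 2 (adjusted p = 0.0519). The probe used is matched to a cDNA clone and not to a RefSeq transcript. The 3 probes matched to Sox6 transcripts were detected on 1, 1 and 2 arrays, and were not tested.

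Genes of oligodendrocyte progenitors rose with Sox6, Sox2 and Sox3. Of 10 measured, 8 were higher in Nestin tumors and 9 in NG2 tumors, with 0 lower in either. Olig2, the lineage's defining factor, rose by 2.40 and 3.20, and Cspg4, which encodes NG2, rose by 1.57 and 2.96. The mean level of the list was 9.65 to 10.96 in Nestin tumors, 10.7 to 11.6 in NG2 tumors and 8.44 to 8.70 in the controls. Of the neural stem and progenitor genes, 8 of 14 measured rose in the Nestin model and 7 of 14 in the NG2 model, with 1 lower in each. Nes, an intermediate filament of progenitors, was at least 14.8-fold higher in Nestin tumors and rose by 4.04 in NG2 tumors, where 1 of 3 controls was above background. Tnc, an extracellular matrix protein, rose by 4.43 and 5.41, and Vim, an intermediate filament, by 3.86 in each. Other genes of the list went other ways. The mean level of Egfr was 11.72 in Nestin tumors and 8.71 in their controls, but 7.79 in NG2 tumors and 8.71 in theirs. Lhx2 had 6.14 in Nestin tumors against 7.09 in controls, and 5.03 against 6.21 in the NG2 model, above background in 1 of 4 NG2 tumors. How far the Sox changes follow the number of such cells was not tested.

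Sox9, the SoxE gene, differed between the tumor types. Its level was 13.38, 14.06 and 13.86 in the Nestin tumors and 12.47, 13.09, 11.48 and 12.10 in the NG2 tumors. The controls had 12.13, 12.60 and 12.16 in the Nestin model and 12.12, 11.93 and 11.72 in the NG2 model. Every Nestin tumor lay above every NG2 tumor, as was so for 10% of all genes, and above every control, and NG2 tumors 3 and 4 lay within the NG2 controls or below them. The change was 1.47 ± 0.32 (2.77-fold, adjusted p = 0.00206) in the Nestin model and 0.36 ± 0.30 (95% interval -0.29 to 1.01, adjusted p = 0.34) in the NG2 model. Nestin tumors were higher than NG2 tumors by 1.48 ± 0.30 (2.80-fold, 95% interval 0.83 to 2.13, adjusted p = 0.0087), and Sox9 was the only one of the 9 to pass there, against 8.99% of all genes. The difference of the tumor effects was 1.11 ± 0.44 and did not pass (adjusted p = 0.191). With slide as a fixed block the tumor difference was 1.77 ± 0.67 with an adjusted p of 0.526, a limma fit in which 0 of all genes passed and 1017 had an unadjusted p under 0.05. In a fit of the tumor arrays alone its adjusted p was 0.0786.

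Astrocyte genes were compared between the tumors beside Sox9. Of 13 measured, 4 were higher and 1 lower in Nestin than in NG2 tumors, and 8 did not pass. Gjb6, a gap junction protein of astrocytes above background in 3 of 4 NG2 tumors, was higher by 4.46, Slc1a2, the main glutamate transporter, by 3.00, Aqp4, a water channel, by 2.29 and Nfix by 1.10. S100b was lower in Nestin tumors by at least 1.57-fold, being not above background there. The mean level of the list was 10.5 to 11.5 in Nestin tumors, 9.45 to 9.95 in NG2 tumors and 10.6 to 10.95 in the controls, so that NG2 tumors lay below both other sets. Mature neuron genes also differed, with 7 of 9 higher in Nestin than in NG2 tumors. The part of astrocytes in the Sox9 difference was not tested.

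Markers of the other cell types of the tissue were also counted. Of 9 measured genes of mature oligodendrocytes 9 were lower in Nestin tumors, and in NG2 tumors 6 were lower and 2 higher. Of the 13 astrocyte genes 3 were higher and 2 lower in the Nestin model, and 3 were higher and 7 lower in the NG2 model. Of 7 microglia and macrophage genes 2 were higher in each model, with 0 lower in the Nestin model and 1 in the NG2 model. C1qa, a complement subunit made by microglia, rose by 2.12 and 1.07. Mean levels of C1qb, Aif1 and Trem2 were also higher in the tumors of both models, and those of Csf1r, Cx3cr1 and Tmem119 were lower. Csf1r had 7.69 in Nestin tumors against 8.42 in controls, and 7.52 against 8.45 in the NG2 model. Of 8 endothelial genes 1 was higher and 1 lower in the Nestin model, with 4 higher and 2 lower in the NG2 model, and of 4 ependymal genes 1 was lower in each.

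The remaining Sox genes give a comparison. Of 10 others on the array 8 were measured: Sox1, Sox7, Sox8, Sox10, Sox13, Sox14, Sox17 and Sox18, while Sox15 and Sox30 did not pass the filter. In the Nestin model 2 were higher, Sox8, a SoxE gene of glia (1.36), and Sox1, a SoxB1 gene above background in 1 of 3 Nestin controls (adjusted p = 0.00104). In the NG2 model 2 were higher, Sox8 (1.35) and Sox10, a SoxE gene of the oligodendrocyte lineage (2.98), and Sox17, a gene of endothelium, fell by 0.78 (adjusted p = 0.0287). Sox10 differed between the tumors in the opposite direction to Sox9: Nestin tumors were lower by 2.45 ± 0.43 (-2.45, adjusted p = 0.00425), with group means of 11.50 ± 1.39 (SD) and 13.94 ± 0.10. Sox1 was not above background in NG2 tumors and at least 1.53-fold higher in Nestin tumors (adjusted p = 0.00359). The difference of the tumor effects of Sox10 passed, at -3.15 (adjusted p = 0.0152). Sox7, Sox13, Sox14 and Sox18 passed in neither model.

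**Figure D4:**
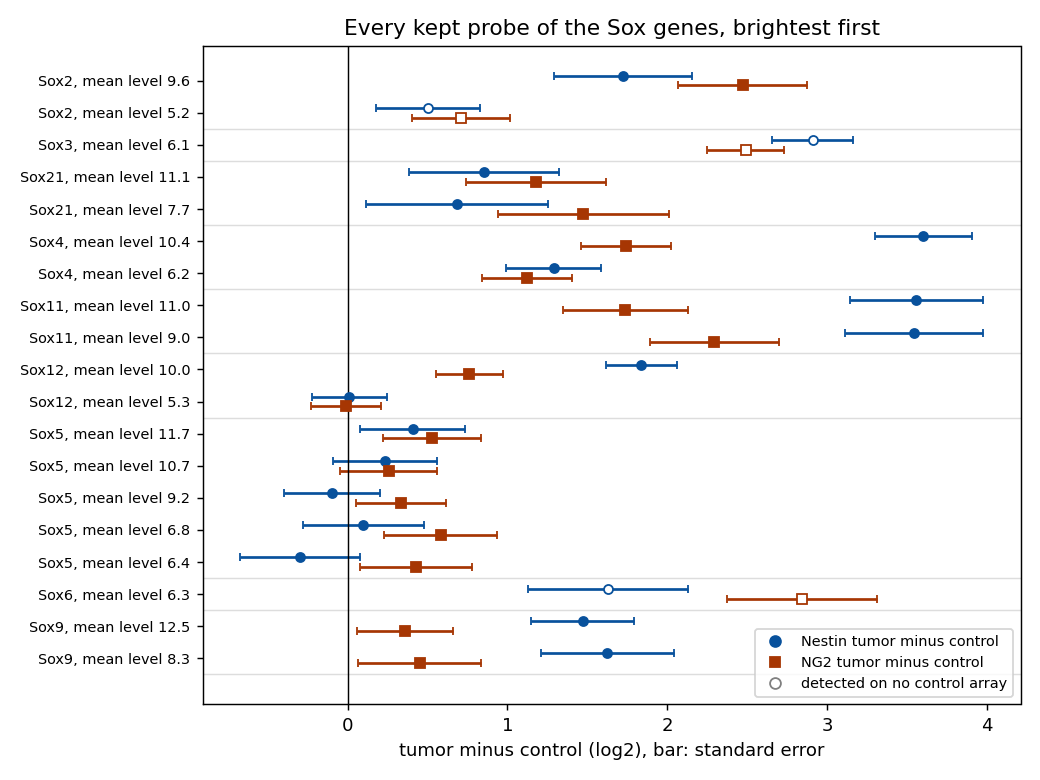
Tumor minus control change (horizontal axis, log2, bars ± SE) of every kept probe of the 9 Sox genes, ordered from the brightest probe of each gene down, blue circles for the Nestin model and brown squares for the NG2 model. Open points are probes detected on no control array, whose sizes have no upper limit. Dimmer probes of Sox4 and Sox12 show smaller changes than the bright probe in the Nestin model, and those of Sox11 and Sox9 similar ones.

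Most of these genes have more than 1 probe, which allows each change to be set beside that of another probe. Of the 28 probes 19 were kept, 9 were not, and 6 were detected on no array. The dimmer probe of Sox11 changed by 3.54 and 2.29 in the Nestin and NG2 models, and that of Sox9 by 1.63 and 0.45, with 1.62 between the tumors (adjusted p over all kept probes = 0.0228). The dimmer kept probe of Sox21, detected on all 13 arrays, changed by 0.69 ± 0.57 in the Nestin model and 1.47 ± 0.53 in the NG2 model. Its limma adjusted p over all kept probes was 0.359 and 0.0345. The dimmer probe of Sox4, detected on 4 of 6 control arrays, rose by 1.29 ± 0.30 and 1.12 ± 0.28. Its difference of effects was 0.17 and its control difference -0.27, so the model difference of Sox4 was seen with the brighter probe alone. The dimmer probe had a mean of 5.37 in Nestin controls, and the dimmest detected probes of those arrays lay at 5.37 to 5.46. A lower level there could not be read, so this probe cannot size the model difference. With the mean of the probes of a gene, which takes in this dimmer probe, the Sox4 difference of effects was 1.01 (adjusted p = 0.193). The dimmer probes of Sox2 and Sox12 were each detected on 3 arrays only and passed in neither model. That of Sox2 was detected on 0 control arrays (adjusted p = 0.234 and 0.069), and that of Sox12 changed by 0.01 and -0.01.

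The Sox genes varied among tumors of a model more than among controls. In the NG2 tumors the median SD of the 9 genes was 0.672, against 0.352 over all genes, and in the NG2 controls 0.202 against 0.277. In the Nestin tumors it was 0.381 against 0.304, and in the Nestin controls 0.159 against 0.223. That Nestin control median is the SD of Sox6. Sox6 and Sox3 were not above background on any control array, so their control spread is that of signal near background. NG2 tumor 1 was the highest of its group for Sox2, Sox21, Sox4 and Sox6, NG2 tumor 2 for Sox3, Sox11, Sox12 and Sox9, and NG2 tumor 4 for Sox5. In the Nestin model tumor 2 was the highest for Sox2, Sox21 and Sox9. That array also had the highest mean level of microglia and macrophage genes, 10.8, where the other arrays had 8.42 to 9.21, and the part of this in its Sox levels was not tested.

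Of the 36 pairs of Sox genes over the 7 tumors, 0 had a Pearson correlation with an adjusted p under 0.05 and 1 passed unadjusted. That pair was Sox2 and Sox21, with r = 0.893 (exact permutation p = 0.00218, adjusted 0.0786) and a Spearman rho of 0.786 (exact permutation p = 0.048, adjusted 0.864). Without the 2 tumors farthest from the median of Sox2 r was 0.697, and after each model's mean was removed it was 0.913. Sox11 and Sox12 had r = 0.754 (exact permutation p = 0.0504), which fell to 0.0826 without the 2 tumors farthest from the median. By rank the strongest pair was Sox3 and Sox21, which ran in opposite directions. Their Spearman rho was -0.964 (exact permutation p = 0.00278, adjusted 0.1) and their Pearson r -0.658 (exact permutation p = 0.109). With Spearman correlation too, 0 pairs had an adjusted p under 0.05.

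Over all 13 arrays, which share the split into tumors and controls, the 2 genes with a level most like that of each Sox gene were found by Pearson correlation, as a description. For Sox2 these were Lcp1 (r = 0.964) and Gna13 (0.956), for Sox3 Shmt1 (0.989) and Oip5 (0.987), and for Sox21 Tspan32 (0.934) and Pik3ap1 (0.905). For Sox4 they were Cdca7 (0.974) and Cd276 (0.972), for Sox11 Maml2 (0.967) and Rpl4 (0.964), and for Sox12 Maml2 (0.969) and Sox11 itself (0.961). For Sox5 they were Gatad1 (0.854) and Zdhhc9 (0.840), for Sox6 C430049B03Rik (0.958) and Fam83e (0.957), and for Sox9 Spag4 (0.903) and Rab29 (0.895). Sox12 was the only one of the 9 with another of them in this list, and Sox5 had the lowest best match of the 9.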

How the data were processed

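The data are 13 single-colour Illumina mouse BeadChip arrays of RNA from flash-frozen brain or tumor tissue, per the labels' protocols. Per the file headers, the authors deposited, for each probe and array, a non-normalized intensity and a detection p-value. The sources used here do not say whether background was subtracted. The authors also deposited a table of processed values for 38563 probes, taken as log2 from their range. Correlations with the values computed here were 0.99998 or more for the same array and 0.988 or less for other arrays, and the column medians ran from 5.29 to 5.31. The sources used here do not name its normalization, and it was tried as an alternative.

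Intensities were normalized with neqc in limma 3.58.1 under R 4.3.3, with an offset of 16, background estimated from the detection p-values, quantile normalization and log2. The filter asked for a detection p under 0.05 on 3 or more arrays, which left 23904 of 45281 probes, and the probe with the highest mean stood for its gene. The platform table names 32093 probes with 1 symbol and 16 with several, and 13172 are unnamed here. Symbols were checked through Entrez numbers in RefSeq (32035 matched, 0 changed). Promoter windows come from RefSeq on GRCm38.p6: 7 of the 9 Sox genes have one there, and no protein sequence is shown.

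The limma model gave each group its own mean, over the 13 arrays and 11927 genes (9 residual and 4.67 prior degrees of freedom), with Benjamini-Hochberg adjustment over all genes and a threshold of 0.05. The fit was tested on simulated data. Groups are those of the labels, and 1 of the 5 NG2 tumors of the design text is not analysed here. The labels call the tumors independent and the controls biological replicates without saying how animals were assigned. The p-values thus set each difference against the spread between these samples. The number of arrays limits the precision. Arrays of the same replicate number in a tumor and a control group did not deviate together (correlations of -0.06 to 0.04), so numbers were not used as pairs. The letters in the sample titles order the NG2 tumors otherwise. By letter, NG2 tumors 4, 1 and 2 go with NG2 controls 1, 2 and 3 (correlations of 0.115, 0.029 and 0.066). No fit used that pairing. The arrays' slide was read from the table's array identifiers. Alternatives were other background corrections and normalizations, the filter, the probe rule, slide and replicate blocks, slides alone, separate fits, the deposited processed values and each array left out.

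Named genes are the 9 Sox genes, the 2 genes nearest to each in correlation, every other Sox gene, and up to 4 genes of each marker list with the largest changes past the threshold in a tumor-control comparison, besides genes of these lists past it between the models. A few further genes of the lists are named by their group levels alone. The members and lists were chosen with earlier results of these data known.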

Additional observations from a re-analysis of the deposited data

Results flagged for a closer look

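Among the 4 NG2 tumors, tumor 1 stood apart for Sox21: its gap to the next tumor was 0.894 of the range of the group, above the limit for 4 samples. Its level was 12.77, and the others lay between 11.13 and 11.30. The Sox21 change in the NG2 model was 1.18 with this array and 0.80 without it (adjusted p = 0.1). A rule of this kind picks about 1 in 20 groups by chance.

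The tumor effect of Sox4 was larger in the Nestin than in the NG2 model by 1.86 ± 0.41 (limma interaction, adjusted p = 0.0243). The Nestin control mean was 8.04 ± 0.09 (SD, n = 3) and the NG2 control mean 9.82 ± 0.26, while the tumor means were 11.64 and 11.56. The call ended in 10 of 26 other settings, among them the mean of the Sox4 probes (1.01, adjusted p = 0.193), and the dimmer Sox4 probe alone gave a difference of 0.17. That probe was near background in the Nestin controls (mean 5.37), so it cannot size the difference.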

How the results depend on the processing

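The counts of Sox genes past the threshold in the tumor-control comparisons stayed within 1.5 times the values reported, 7 in each model, in all 15 other settings of each, and ranged from 6 to 7 (Nestin) and 6 to 8 (NG2) with 1 array left out. The count of 1 for the difference of effects fell to 0 with no background correction, with scaling to the median, with the mean of the kept probes and with slide as a fixed block, and ranged from 0 to 4 with 1 array left out. The count of 1 between controls fell to 0 with the mean of the kept probes and the slide block and was 3 with only the groups of the comparison, and that of 1 between tumors fell to 0 with the slide block and with only the groups of the comparison; both stayed at 1 with any 1 array left out. The cause was not tested.

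Single calls depended on the setting in these cases. Sox6 in the Nestin model was lost with no background correction (adjusted p = 0.118) and with a normexp offset of 50 (adjusted p = 0.0589), and Sox12 in the NG2 model with the mean of the probes (0.38). Sox21 in the NG2 model was lost with cyclic loess, with no filter and with the slide block (adjusted p = 0.0528, 0.0548 and 0.131). Scaling to the median shifted the median of all genes to 0.45 (Nestin) and 0.47 (NG2), with 72.9% and 71.8% of calls higher against 52.6% and 52.4%, and there Sox5 passed in both models, Sox21 in the Nestin and Sox9 in the NG2 model. Sox11 and Sox12 passed between controls with only the groups of the comparison (adjusted p = 0.00566 and 0.0397).

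Differences that changed sign, none of them past the threshold, follow. Between tumors these were Sox4 (-0.00877 with the mean of the probes, -0.213 with the slide block, and -0.0939 to 0.377 with 1 array left out), Sox2 (0.252 with the slide block) and Sox21 (-0.745 to 0.245 with 1 array left out). Between controls they were Sox3 (-0.0897 with the slide block, -0.0439 to 0.113 with 1 array left out) and Sox6 (-0.339 with the slide block), both not above background in the controls and so without an order. In the difference of effects they were Sox5 (0.0934 with the slide block, 0.112 with the replicate block, -0.414 to 0.113 with 1 array left out) and Sox21 (-0.923 to 0.0671 with 1 array left out). With replicate numbers as a replicate block the counts of Sox genes were 7, 7, 1, 1 and 1 as reported, and over all genes 705 passed between tumors against 1072 without it. Over all genes the tumor comparison gave 0 calls with slide as a fixed block, 1936 with slide as a random block, 166 with only its groups and 664 without Nestin tumor 3. The control comparison gave 414 calls, 85 with the slide block, 952 with only its groups and 187 to 257 without certain single arrays. The difference of effects gave 453 calls, 184 with the slide block and 192 to 253 without certain single arrays.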
